A study of Mus musculus with 12 samples.

Results

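The 3 post-MCS-01 wounds of a study of diabetic mice were set against its 9 other wounds, 3 labelled pre-MCS-01, 3 labelled DSCG and 3 labelled blank. Membership followed the treatment label, and the 3 libraries are 3 of 12 in all. They were chosen by their scores on the first principal component of the gene counts, where they lie apart, so that component and the gene differences below describe the libraries and are not tests of them. All 12 wounds came from the back skin of C57BL/6 mice made diabetic with streptozotocin, a toxin of insulin-producing cells, with 1 mouse per library. MCS-01 is a code name for a mast cell stabilizer. DSCG usually stands for disodium cromoglycate, which is also a mast cell stabilizer, and the blank wounds were read as controls without an agent. Pre and post are not explained in the labels, which name no dose, time, age or sex.

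Mast cell stabilizers hold back the release of stored mediators from mast cells, which sit around vessels and hair follicles in skin. A healing skin wound passes through inflammation, with neutrophils and macrophages drawn in by chemokines and alarm cytokines, and through re-covering by activated keratinocytes. Hair follicles at the wound edge cycle between growth and rest. In the growth phase, matrix cells at the follicle base build the hair shaft and its inner root sheath, and melanocytes beside them supply pigment.

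Levels are CPM, read counts divided by the TMM-adjusted size of their library, and a gene is called higher or lower where the edgeR quasi-likelihood fit over all 16267 genes tested gave a Benjamini-Hochberg adjusted p under 0.05. That call sorts genes. In post-MCS-01 wounds against the other 9, 54 genes were called higher (0.332% of those tested) and 163 lower (1%), or 217 in either direction (1.33%). Of the lower genes, 66 code for keratins or keratin-associated proteins of hair, which were 44 of the keratin-associated kind and 22 keratins. The genes described here are mainly the 97 other lower genes and the 53 higher genes that are not keratins, 27 and 2 of which are predicted genes without a name. Krt222 was the keratin called higher.

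The 97 lower genes had a median log2 fold change of -5.68, which was the same with the 2 genes of 0 counts in all post-MCS-01 libraries placed at their bound, and the 53 higher genes had a median of 1.83. Over all genes tested the median was -0.01. Each of the 97 lower genes lay in all 3 post-MCS-01 libraries below all 9 others, against 3.3% of all genes tested. Of the 53 higher genes, 26 lay above all 9 others, against 1.58% of all genes tested, and 27 overlapped with at least 1 other library. Taken in either direction, 4.87% of all genes tested did not overlap. The calls were made on the same libraries, so these shares add no evidence to them. These calls depend on the tool and on single libraries. DESeq2 called 235 higher and 526 lower, and limma-voom 4 and 6. With keratin genes left out before scaling, edgeR called 32 and 58, to be set against the 53 and 97 calls outside keratin genes. No gene was called in either direction without post-MCS-01 replicate 1, post-MCS-01 replicate 2 or blank replicate 1, and without post-MCS-01 replicate 3 there were 5 higher and 0 lower. All 217 called genes kept their sign in these fits, except that with keratin genes left out 150 of them were fitted, and all 150 kept it. The fits share these libraries, and 163 lower and 27 higher calls did not overlap with any other library. Their signs could hardly change, so the kept signs do not show that the calls are stable.

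The 12 libraries held 3.84e+06 to 5.05e+07 gene counts, and the lowest was blank replicate 3. Genes with long exons lay low in 3 libraries (blank replicate 3, DSCG replicate 2 and pre-MCS-01 replicate 2), with Spearman's rho across genes between -0.384 and -0.319 against exon length, and between -0.0576 and 0.338 in the other 9 libraries. None of these 3 is a post-MCS-01 library. Without them no gene was called in either direction (0 higher and 0 lower), and the part of exon length in the differences was not tested. Keratinocyte marker Krt5 stood at 5090 to 7280 CPM in post-MCS-01 wounds and 4980 to 8530 CPM in the others. The skeletal muscle marker Acta1 was present in every library, at 1440 to 3980 CPM in post-MCS-01 and 1110 to 3100 CPM in the others.

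On the first principal component, which held 44.4% of the variance, the post-MCS-01 libraries scored 68.9, 100 and 77.9, against -72.6 to 33.9 in the other 9. DSCG replicate 1 was the nearest of these. With 174 keratin, hair and pigment-cell genes left out, the post-MCS-01 libraries scored 49.8, 70.9 and 51.1, against -68.9 to 31.7 in the others. With 305 genes left out, the called genes among them, the scores were 37.2, 49.9 and 33.9, against -67.3 to 30.8. The groups did not overlap in any of the 3 versions, and in the last the nearest library was pre-MCS-01 replicate 3. Since the component chose the libraries, none of these scores is a test.

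**Figure D1:**
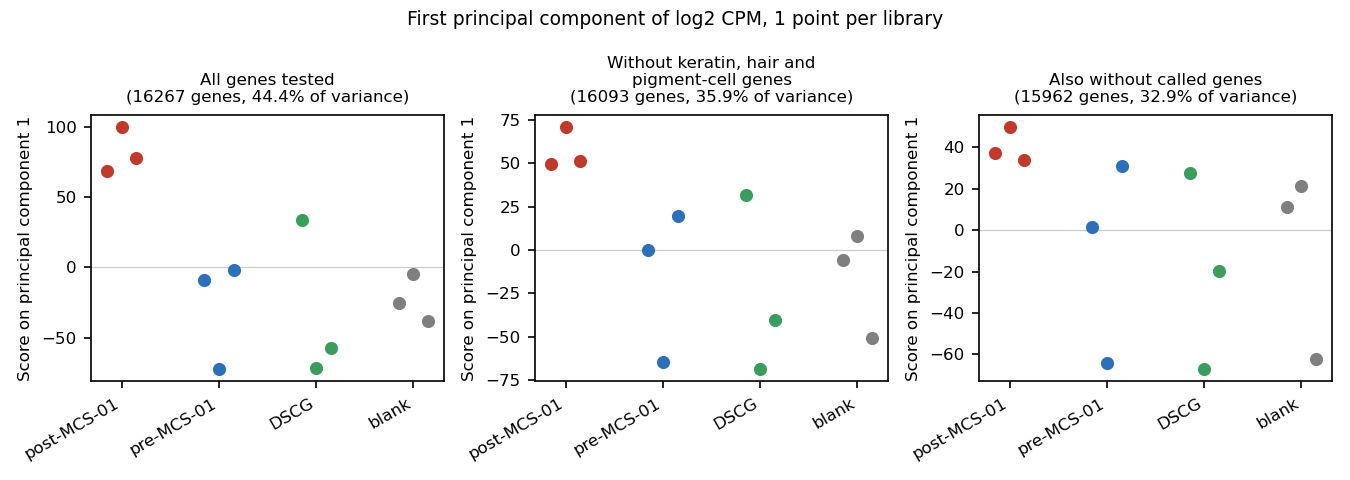
Scores of the 12 libraries on the first principal component of log2 CPM (1 point per library), for all genes tested, without 174 keratin, hair and pigment-cell genes, and also without called genes (305 left out). The 3 post-MCS-01 libraries lie highest in each panel, with DSCG replicate 1 nearest in the first at 33.9 and pre-MCS-01 replicate 3 nearest in the last at 30.8.

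Genes listed for the hair shaft and inner root sheath, keratins set aside, were mostly lower in post-MCS-01 wounds. In a list of 17 such genes, 12 were called lower and none higher, against 1% of all genes tested called lower. The list's median log2 fold change was -6.72. Not all of its members are structural: Bhlha9, Lyg2, Gprc5d, Crym, Padi1 and Padi3 are among the 12. The list was drawn up with earlier results of these data known, so its share of calls is a description and no test. Trichohyalin (Tchh, chromosome 3, 93442330 to 93449077 on GRCm38), which stiffens the inner root sheath, stood at 42.4, 27 and 25 CPM in post-MCS-01 wounds, against 630 to 16700 CPM with a median of 5350 CPM in the other 9. All post-MCS-01 libraries lay far below the lowest of the others, DSCG replicate 1, and the difference was 179-fold (log2 fold change -7.48 ± 1.07 SE). Padi3, the enzyme that modifies trichohyalin by turning its arginines into citrulline, stood at 1.39, 0.384 and 2.23 CPM in post-MCS-01 wounds, against 34.4 to 764 CPM with a median of 229 CPM. Its relative Padi1 had 1.64, 2.54 and 1.08 CPM in post-MCS-01 wounds, against 12.7 to 157 CPM in the others, and Padi4 fell less, with a log2 fold change of -2.35 ± 0.51 (SE). Padi4 and Padi1 are among the genes named after their values were seen.

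Several of these genes were close to absent from the post-MCS-01 libraries. Gprc5d (chromosome 6, 135105991 to 135118283), an orphan receptor of cells that build hard keratin, had 12 counts over the 3 post-MCS-01 libraries, or 0.227, 0 and 0.0689 CPM, against 4.28 to 256 CPM in the others. The log2 fold change of Gprc5d was -9.94, ranging to -11.30 with post-MCS-01 replicate 1 left out and to -9.32 with post-MCS-01 replicate 2 left out. Lyg2 (chromosome 1, 37905923 to 37916493), a lysozyme-like gene, had 2 counts in post-MCS-01 wounds, against 13504 in the others, and the ratio of the others to post-MCS-01 was 2380 (95% exact binomial counting interval 660 to 19700). Bhlha9, a basic helix-loop-helix transcription factor gene on chromosome 11 (76672470 to 76673676), had 0 counts in all post-MCS-01 libraries, against 3612 in the others. Set against a floor of 3 counts for the post-MCS-01 libraries together, it was at least 425-fold lower in post-MCS-01. These intervals and floors cover counting error only. DSCG replicate 1 was the lowest of the 9 for all 3 genes.

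S100a3, Crnn and Prr9 fell as well. S100a3, a calcium-binding protein of the hair cuticle, had 2.09, 0.864 and 2.69 CPM in post-MCS-01 wounds, against 43.7 to 2640 CPM with a median of 488 CPM in the others. Crnn, cornulin, a protein of cornified epithelia, had 1.18, 0.36 and 0.597 CPM, against 20.6 to 451 CPM. Prr9, a small proline-rich protein, had 4.51, 2.57 and 1.51 CPM, against 41.6 to 1590 CPM. In each case the groups did not overlap, the post-MCS-01 values lay within a few CPM of 0, and DSCG replicate 1 was the lowest of the other 9. Among the 97 lower genes, DSCG replicate 1 was the library nearest to post-MCS-01 for 81. Without it, 216 genes were called higher and 420 lower.

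Promoters of 3 of these genes and of 1 gene that rose, Il13ra2, were picked for the motif and are shown because a TATA box, a core promoter motif bound by the general transcription machinery, stands at about the same place in each. They run from 250 bases before to 50 after the annotated start, come from RefSeq (GRCm38.p6), and are written 5′ to 3′ with TATAAA in capitals.
Lyg2 (chr1:37916444-37916743, minus strand): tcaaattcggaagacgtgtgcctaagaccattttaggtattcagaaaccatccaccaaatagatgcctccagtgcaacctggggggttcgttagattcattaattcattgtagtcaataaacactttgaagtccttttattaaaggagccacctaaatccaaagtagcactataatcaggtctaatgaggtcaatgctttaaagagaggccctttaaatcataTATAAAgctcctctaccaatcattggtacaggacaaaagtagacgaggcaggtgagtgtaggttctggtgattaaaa
Crnn (chr3:93144539-93144838, plus strand): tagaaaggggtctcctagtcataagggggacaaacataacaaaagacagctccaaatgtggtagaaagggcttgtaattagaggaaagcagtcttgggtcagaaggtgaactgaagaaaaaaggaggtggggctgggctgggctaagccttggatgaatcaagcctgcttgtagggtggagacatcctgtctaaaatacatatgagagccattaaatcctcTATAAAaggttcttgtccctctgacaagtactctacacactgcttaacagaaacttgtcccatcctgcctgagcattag
Prr9 (chr3:92123898-92124197, minus strand): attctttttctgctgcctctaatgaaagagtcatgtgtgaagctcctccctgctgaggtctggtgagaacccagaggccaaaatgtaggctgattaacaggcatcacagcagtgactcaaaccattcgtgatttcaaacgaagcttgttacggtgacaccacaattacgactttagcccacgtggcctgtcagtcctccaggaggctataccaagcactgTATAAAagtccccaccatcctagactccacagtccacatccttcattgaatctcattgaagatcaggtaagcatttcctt
Il13ra2 (chrX:147429143-147429442, minus strand): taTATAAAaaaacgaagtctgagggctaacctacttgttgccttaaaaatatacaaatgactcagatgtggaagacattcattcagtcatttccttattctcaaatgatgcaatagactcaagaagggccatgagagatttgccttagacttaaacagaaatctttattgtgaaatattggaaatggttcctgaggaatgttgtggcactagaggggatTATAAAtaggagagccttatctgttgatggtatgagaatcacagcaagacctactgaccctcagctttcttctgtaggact
The motif nearest to the start begins 27, 29, 30 and 31 bases before it, in the order given. Promoters were found for 71 of the 97 lower genes, 40 of the 53 higher genes and 12062 of the 16267 genes tested. A TATAAA beginning 20 to 40 bases before the start was present in 18 promoters of lower genes (25.4%), 2 of higher genes (5.0%) and 289 of all genes tested (2.4%). Predicted genes carried much of this share: without them it was 6 of 51 lower genes (11.8%). In the 54 promoters of lower keratin and keratin-associated genes it was 59.3%.

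Searched over the whole 300 bases on either strand (TATAAA or TTTATA), the motif was in 42.3% of the lower promoters, 22.5% of the higher promoters and 8.9% of those of all genes tested. Without predicted genes, lower and higher promoters held it at 23.5% and 23.7%. In the lower keratin and keratin-associated promoters it was 83.3%. Another 3 motifs were searched on either strand. The NF-kB motif, searched as GGGA, then 4 bases of any kind, then CC, was in 12 of 40 higher promoters, 17 of 71 lower promoters (23.9%) and 26.2% of those of all genes tested. The C/EBP letters TTGCNNAA were in 4 of the higher, 7 of the lower (9.86%) and 8.9% of all, and the LEF/TCF letters CTTTGA in 8 of the higher, 10 of the lower (14.1%) and 12.8% of all. The 54 keratin and keratin-associated promoters held the LEF/TCF letters in 20 (against 12.8% of all), the C/EBP letters in 10 (against 8.9%) and the NF-kB letters in 6 (against 26.2%). Over all 27025 promoters in the table, TATAAA was in 14.2%, the NF-kB letters in 20.5%, the C/EBP letters in 10.8% and the LEF/TCF letters in 16.2%.

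Genes that direct the hair cycle were lower to a lesser degree. Of 29 listed regulators, 7 were called lower and none higher, against 1% of all genes tested called lower, and the median log2 fold change was -1.43, with 28 of 29 below 0. Foxe1, a forkhead transcription factor of the follicle, had 0.479, 0.168 and 0.987 CPM in post-MCS-01 wounds, against 4.26 to 81.3 CPM with a median of 31 CPM in the others. Hoxc13, a homeobox factor that drives hair keratin genes, had 12.1, 4.29 and 6.56 CPM in post-MCS-01 wounds, against 15.2 to 178 CPM. The log2 fold change of Foxe1 was -6.08, and -6.81 without post-MCS-01 replicate 3. Neither gene's groups overlapped, and for both DSCG replicate 1 was the lowest of the 9 others. The homeobox genes Dlx3, Msx1 and Msx2, which act in the hair matrix, fell by 3.06, 2.64 and 3.39 on the log2 scale. Fgf5, the growth factor that ends the hair growth phase, had 0.428, 0.216 and 0.184 CPM in post-MCS-01 wounds, against 0.861 to 20.4 CPM, and Corin, a protease of the dermal papilla in mouse hair follicles, fell by 3.78. Msx2, Fgf5 and Corin are among the genes named after their values were seen. In these bulk samples, fewer cells of a type and less RNA per cell cannot be told apart.

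The lists of hair follicle stem cell and sebaceous gland genes held no called gene. Of 14 listed genes of hair follicle stem cells, 0 were called and the median log2 fold change was -0.52. Among them, Sox9, a transcription factor of the outer root sheath and bulge, had 97.3, 33.9 and 50.9 CPM in post-MCS-01 wounds, against 39.3 to 244 CPM in the others. For 14 sebaceous gland genes the median was -0.03, again with 0 called. Summed levels overlapped for both lists, at 1990 to 2450 CPM against 1660 to 4050 CPM for the stem cell list and 1560 to 2980 CPM against 1250 to 4510 CPM for the gland list. Another 3 genes, which code for regulators of transcription and were named after their values were seen, did fall. The falls were 1.45 for Id4, 1.37 for Barx2 and 1.06 for Sox4 on the log2 scale.

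Pigment cell genes lay low in post-MCS-01 wounds without any of them being called. All 13 listed melanocyte genes had a log2 fold change below 0, with a median of -2.84, and 10 lay below all 9 other libraries, against 3.3% of all genes tested. Tyrosinase (Tyr, chromosome 7, 87424771 to 87493512), the rate-limiting enzyme of melanin synthesis, had 1.54, 0.84 and 2.18 CPM in post-MCS-01 wounds, against 2.54 to 37.2 CPM with a median of 9.3 CPM. Oca2, a transporter of the melanosome, had 0.0756, 0.072 and 0.23 CPM, against 0.374 to 13.1 CPM. Blank replicate 2 was the lowest of the other 9 for both. The log2 fold changes were -2.84 ± 0.70 for Tyr and -5.03 ± 1.14 for Oca2 (SE). That of Oca2 was -5.77 without post-MCS-01 replicate 3 and -4.29 without blank replicate 1.

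The lower genes also held members outside any hair list. Slc4a1 (chromosome 11, 102348824 to 102366203), the anion exchanger of the red cell membrane, had 0.277, 0.504 and 0.275 CPM in post-MCS-01 wounds, against 1.04 to 28.6 CPM with a median of 8.42 CPM. It was the only gene of the 8 tested in an erythroid list to be called, against 1% of all genes tested called lower. Alas2, the heme synthesis enzyme of red cell precursors, had 5.77, 6.02 and 7.23 CPM in post-MCS-01 wounds and 3.89 to 20.5 CPM in the others, which overlapped. The globin genes Hba-a1 and Hbb-bs were listed at 0 in all 12 libraries. Whether globin RNA was present in the wounds was not tested, and these entries do not compare the groups.

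A pair of iron-handling genes fell as well, both named after their values were seen. Slc40a1, ferroportin, the iron exporter, had 26.6, 21.2 and 14.6 CPM in post-MCS-01 wounds, against 34.9 to 134 CPM with a median of 79.8 CPM. Cybrd1, a ferric reductase, had 2.02, 0.984 and 1.51 CPM, against 3.57 to 24.5 CPM. The groups did not overlap for either gene.

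Among the largest falls were genes with very few counts in post-MCS-01 wounds. Sct, the gut hormone secretin, had 3 counts over the post-MCS-01 libraries, against 2581 over the others, a ratio of the others to post-MCS-01 of 304 (95% counting interval 104 to 1470). The potassium channel gene Kcnk16, the tight-junction gene Cldn14 and the calpain protease gene Capn8 also had 3 counts each in post-MCS-01, with ratios of 291 (99.4 to 1410), 268 (91.6 to 1300) and 837 (286 to 4060). Kcne1, a regulatory subunit of a potassium channel, had 0.0504, 0 and 0.0459 CPM, against 0.735 to 29.6 CPM. Fam26d and Actbl2, an actin-like gene, had 2 counts and 1 count in post-MCS-01 wounds, with ratios of 1720 (476 to 14200) and 610 (109 to 24100). DSCG replicate 1 was the lowest of the other 9 for each of these genes except Kcnk16, for which it was blank replicate 2. Fitted log2 fold changes of genes this low move with single counts. Without post-MCS-01 replicate 1 they were -10.36 in place of -8.54 for Actbl2, -8.77 in place of -7.92 for Sct and -8.56 in place of -7.71 for Cldn14. That of Capn8 was -10.12 in place of -9.33 without post-MCS-01 replicate 3, and that of Kcne1 -7.62 in place of -8.21 without post-MCS-01 replicate 2. With limma-voom the values were -7.57 for Actbl2, -7.16 for Sct and -8.74 for Capn8, and these 3 genes were not called.

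**Figure D2:**
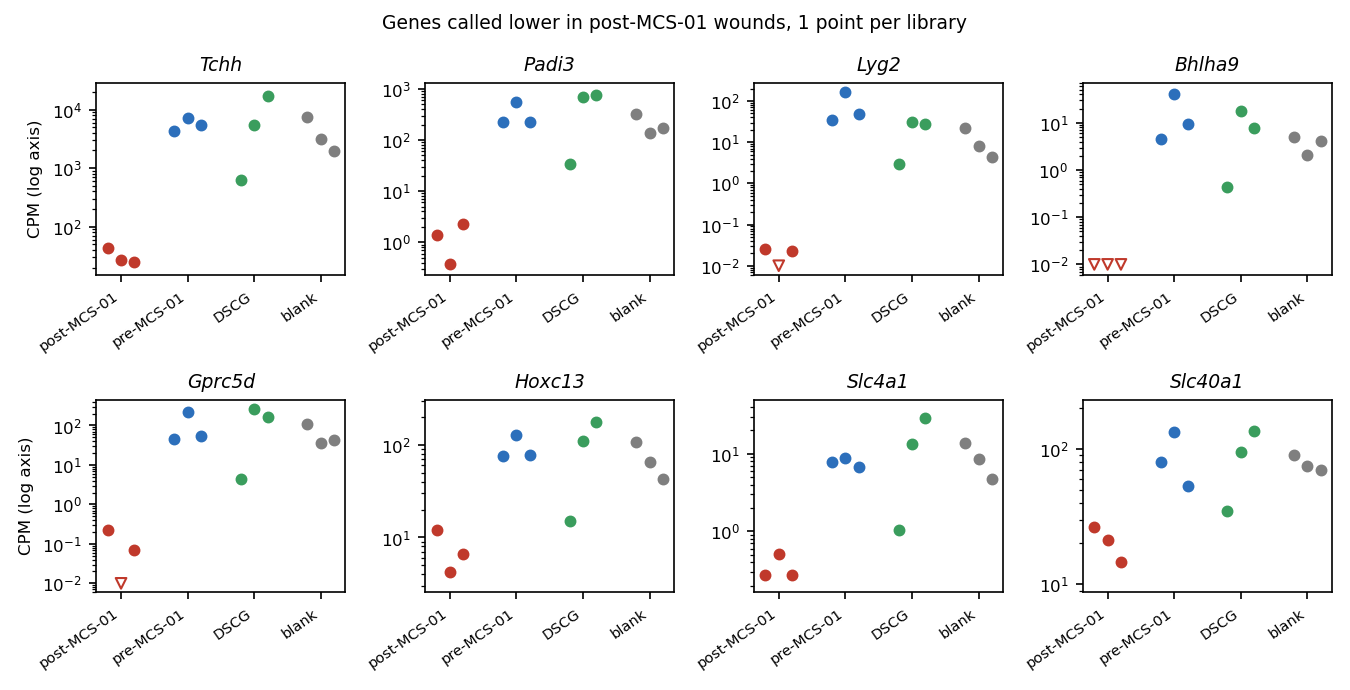
CPM in each library (1 point per library, log axis) for 8 genes called lower in post-MCS-01 wounds. Open triangles mark a count of 0 and are drawn at 0.01 CPM. The post-MCS-01 points lie below all others in every panel, and DSCG replicate 1 is the lowest of the other 9 in each.

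Of the named genes that rose, Chil3 and Saa1 had large folds. Chil3 (chromosome 3, 106147554 to 106167564), a chitinase-like protein of macrophages and neutrophils, had 16.4, 53.8 and 36.2 CPM in post-MCS-01 wounds, against 1.31 to 12.2 CPM with a median of 4.26 CPM in the others. It rose 7.46-fold (log2 fold change 2.90 ± 0.40 SE). Saa1 (chromosome 7, 46740497 to 46742980), an acute-phase protein, had 12.5, 19.7 and 12.3 CPM, against 0.262 to 7.05 CPM. All post-MCS-01 values of both genes lay above all others, and the highest of the others was a pre-MCS-01 library in both cases. Chil3 and Saa1 each have a close copy in the mouse genome, Chil4 and Saa2, so how reads were assigned between the copies is uncertain.

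Lcn2 (chromosome 2, 32384633 to 32388252), lipocalin 2, an iron-trapping antibacterial protein, had 322, 501 and 248 CPM in post-MCS-01 wounds, against 16 to 161 CPM with a median of 97.5 CPM. Il33 (chromosome 19, 29925114 to 29960718), an alarm cytokine stored in the nuclei of epithelial and stromal cells that acts on mast cells among others, had 109, 172 and 153 CPM, against 11.3 to 69 CPM with a median of 42 CPM. The groups did not overlap, and Il33 rose 3.32-fold. Cxcl1, the neutrophil-attracting chemokine, had 19.1, 20.1 and 20.2 CPM in post-MCS-01 wounds, against 0.212 to 11.1 CPM, but was not called. Sod2, a mitochondrial antioxidant enzyme, had 143, 181 and 150 CPM, against 69.9 to 126 CPM, a small rise of 1.73-fold without overlap.

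Slc26a4, Il20 and Defb3 were called higher with a wide spread between libraries. Slc26a4 (chromosome 12, 31519827 to 31559969), the anion exchanger pendrin, had 42.2, 148 and 10.7 CPM in post-MCS-01 wounds, against 0.148 to 20.5 CPM with a median of 1.62 CPM. Il20, a cytokine of the IL-10 family that acts on keratinocytes, had 3.98, 7.05 and 1.06 CPM, against 0 to 2.23 CPM, and Defb3, a beta-defensin, had 43.7, 105 and 24 CPM, against 0.106 to 41.4 CPM. Pre-MCS-01 replicate 2 reached the post-MCS-01 range for all 3 genes. With post-MCS-01 replicate 2 left out, log2 fold changes were 3.48 in place of 4.79 for Slc26a4, 3.19 in place of 3.83 for Il20 and 2.86 in place of 3.59 for Defb3. Alox8, a lipoxygenase of mouse epidermis, and Spdef, an epithelial ETS-family transcription factor, were named after their values were seen, and rose with log2 fold changes of 3.19 ± 0.53 and 3.72 ± 0.56 (SE). Alox8 had 338, 978 and 114 CPM in post-MCS-01 wounds, against 13.6 to 305 CPM, and its log2 fold change was 2.14 without post-MCS-01 replicate 2. With the other 9 libraries fitted as 1 group, the log2 fold change was 3.67 for Slc26a4, 2.60 for Il20, 2.41 for Defb3 and 2.40 for Spdef, and none of these 4 genes was called in that fit.

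Has3, a hyaluronan synthase, had 25.3, 73.2 and 31 CPM in post-MCS-01 wounds, against 4.45 to 19 CPM with a median of 13 CPM. Sh2d5, which codes for an SH2-domain protein, had 14, 47.8 and 18.3 CPM, against 3.39 to 12 CPM, and its log2 fold change was 1.37 in place of 2.05 without post-MCS-01 replicate 2. Cyp7b1, an oxysterol hydroxylase, had 29.8, 37.4 and 28.6 CPM, against 3.05 to 20.8 CPM. For these 3 genes no other library reached the post-MCS-01 range. Plscr1, a membrane lipid scramblase induced by interferon, had 22, 34.1 and 15.7 CPM, against 3.56 to 11.7 CPM. Kcnd3, a voltage-gated potassium channel, had 0.907, 1.99 and 0.826 CPM, against 0.0659 to 0.644 CPM, also without overlap.

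**Figure D3:**
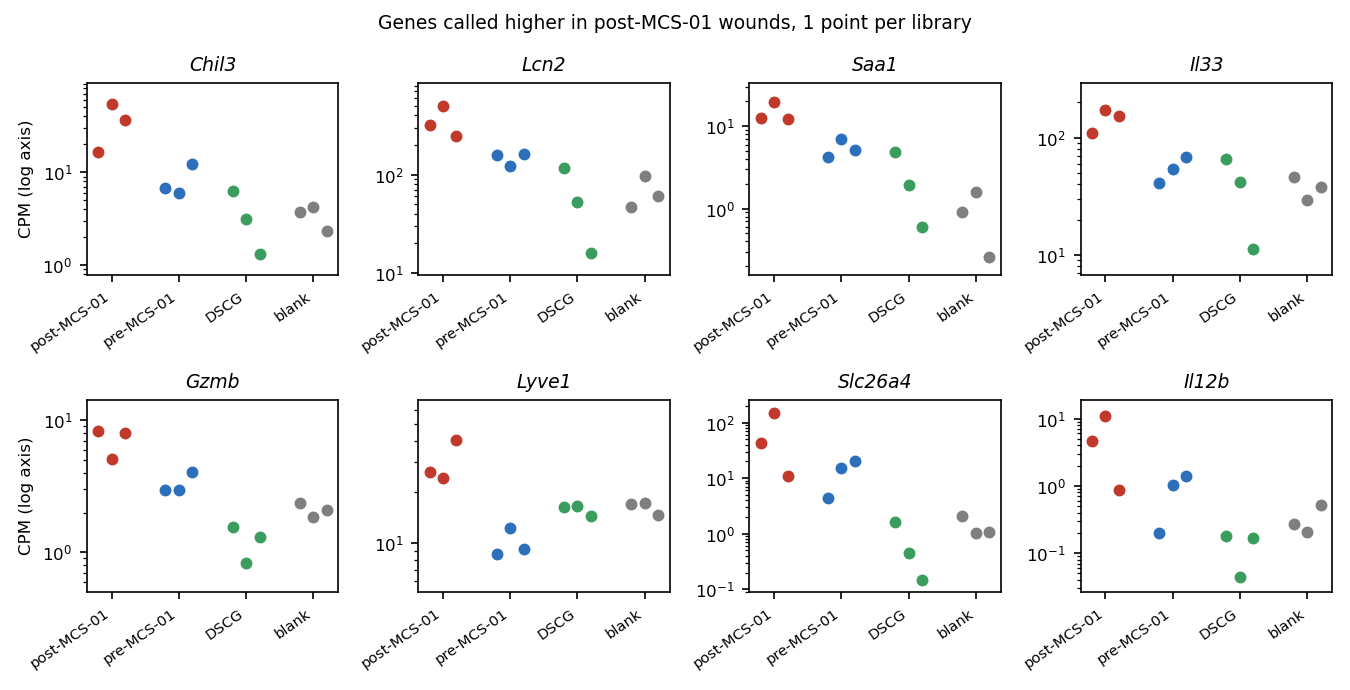
CPM in each library (1 point per library, log axes that differ between panels) for 8 genes called higher in post-MCS-01 wounds. Chil3, Lcn2, Saa1, Il33, Gzmb and Lyve1 do not overlap with any other library, while pre-MCS-01 libraries reach the post-MCS-01 range for Slc26a4 and Il12b.

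Macrophage receptors and products rose in part. In a list of 20 genes of alternatively activated and resident macrophages, 4 were called higher (Chil3, Il13ra2, Il4ra and Lyve1), against 0.332% of all genes tested. All 20 had a log2 fold change above 0, with a median of 0.74. By group the median was 1.15 for post-MCS-01 minus pre-MCS-01, 0.71 minus DSCG and 0.24 minus blank. Relative to its median over the other 9, the list's mean log2 CPM was 0.98, 0.54 and 1.04 in post-MCS-01 wounds. Blank replicate 2, at 0.62, lay within that range. Lyve1 (chromosome 7, 110850607 to 110863239), which binds hyaluronan on lymphatic vessels and resident macrophages, had 26.3, 24.3 and 40.5 CPM in post-MCS-01 wounds, against 8.65 to 17.2 CPM with a median of 14.7 CPM. Il13ra2, the decoy receptor of interleukin 13, had 3.15, 3.38 and 2.82 CPM, against 0.82 to 1.83 CPM. Il4ra, the signalling receptor chain shared by interleukins 4 and 13, had 262, 315 and 387 CPM, against 94.8 to 257 CPM. None of the 3 overlapped, and the folds of 2.21, 2.44 and 2.05 were close in size. Among 17 general macrophage genes 0 were called, with a median of 0.54. By group that median was 0.89 minus pre-MCS-01, 0.36 minus DSCG and 0.25 minus blank.

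In the list of classically activated macrophages, 1 of 15 genes tested was called (0.332% of all genes tested were called higher). The median log2 fold change was 1.38, with all 15 above 0, and by group 0.51 minus pre-MCS-01, 1.58 minus DSCG and 1.78 minus blank. Relative to its median over the other 9, the list's mean log2 CPM was 0.80, 1.88 and 0.88 in post-MCS-01 wounds. Pre-MCS-01 replicates 1 and 3, at 0.86 and 1.17, lay within that range. The called gene was Il12b, the shared subunit of interleukins 12 and 23, at 4.71, 11 and 0.872 CPM in post-MCS-01 wounds, against 0.044 to 1.4 CPM in the others. Pre-MCS-01 replicates 2 and 3 lay within the post-MCS-01 range, and without post-MCS-01 replicate 2 the list's median was 0.72 and the log2 fold change of Il12b 3.17 in place of 4.12. Of 14 neutrophil genes tested, 1 was called, Lcn2, against the same 0.332%, with a median of 1.30. The neutrophil protein gene S100a8 itself stood at 1480 to 3010 CPM in post-MCS-01 wounds and 8.74 to 2370 CPM in the others, which overlapped widely.

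A few lymphocyte and dendritic cell genes of low level were called higher. Gzmb, the granzyme of cytotoxic cells, had 8.34, 5.09 and 8.01 CPM in post-MCS-01 wounds, against 0.835 to 4.07 CPM with a median of 2.1 CPM. Ctla4, an inhibitory receptor of T cells, had 5.64, 3.29 and 3.49 CPM, against 0.572 to 2.81 CPM. Both were above all other libraries, and they were the only genes called among 20 tested in the T and NK cell list, whose median was 0.38, against 0.332% of all genes tested called higher. The T cell receptor component Cd3e had 5.18 to 6.15 CPM in post-MCS-01 wounds and 2.78 to 12.2 CPM in the others. Ccr7, the receptor that leads dendritic cells and T cells to lymph nodes, had 9.47, 4.65 and 8.72 CPM, against 1.63 to 4.14 CPM, and Ccl22, a chemokine of dendritic cells and macrophages, had 30.1, 13.9 and 23.9 CPM, against 7.23 to 13.7 CPM. Those were the 2 genes called of 14 in the dendritic cell list, against the same 0.332%. The list's summed level was 322 to 489 CPM in post-MCS-01 wounds and 366 to 624 CPM in the others.

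Cd274, Tnfrsf9 and Socs1 rose too, and were named after their values were seen. Cd274, the ligand PD-L1, had 30.4, 63.4 and 23.5 CPM in post-MCS-01 wounds, against 3.56 to 25.1 CPM, and Tnfrsf9, a costimulatory receptor, had 8.54, 14.8 and 7.07 CPM, against 1.88 to 7.87 CPM. Pre-MCS-01 replicate 3 was the library that overlapped for both. Socs1, a brake on cytokine signalling, had 50.5, 55.3 and 36.7 CPM, against 10.7 to 36.4 CPM. Mcoln2, a lysosomal cation channel of immune cells, rose 4.15-fold, at 18.2, 10.2 and 27.7 CPM, against 2.1 to 6.9 CPM.

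Genes of mast cells, the cells the agents are named for, were not among those called. Of 18 listed mast cell and basophil genes 0 were called, with a median log2 fold change of 0.23. Cpa3, the mast cell carboxypeptidase, had 23.9, 11.2 and 26.3 CPM in post-MCS-01 wounds, against 13.2 to 23.8 CPM in the others, a log2 fold change of 0.15 ± 0.25 (SE). Kit, the stem cell factor receptor, had 9.37, 6.21 and 10.2 CPM, against 7.07 to 27.9 CPM. Hdc, the histamine-forming enzyme, had 23.5, 243 and 41.7 CPM, against 3.68 to 166 CPM, so that 1 post-MCS-01 library stood highest. Without that library, post-MCS-01 replicate 2, the log2 fold change of Hdc was 0.10 in place of 1.72. Il10, an anti-inflammatory cytokine, had 0.957, 0.888 and 1.54 CPM, against 0.106 to 1.63 CPM.

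**Figure D4:**
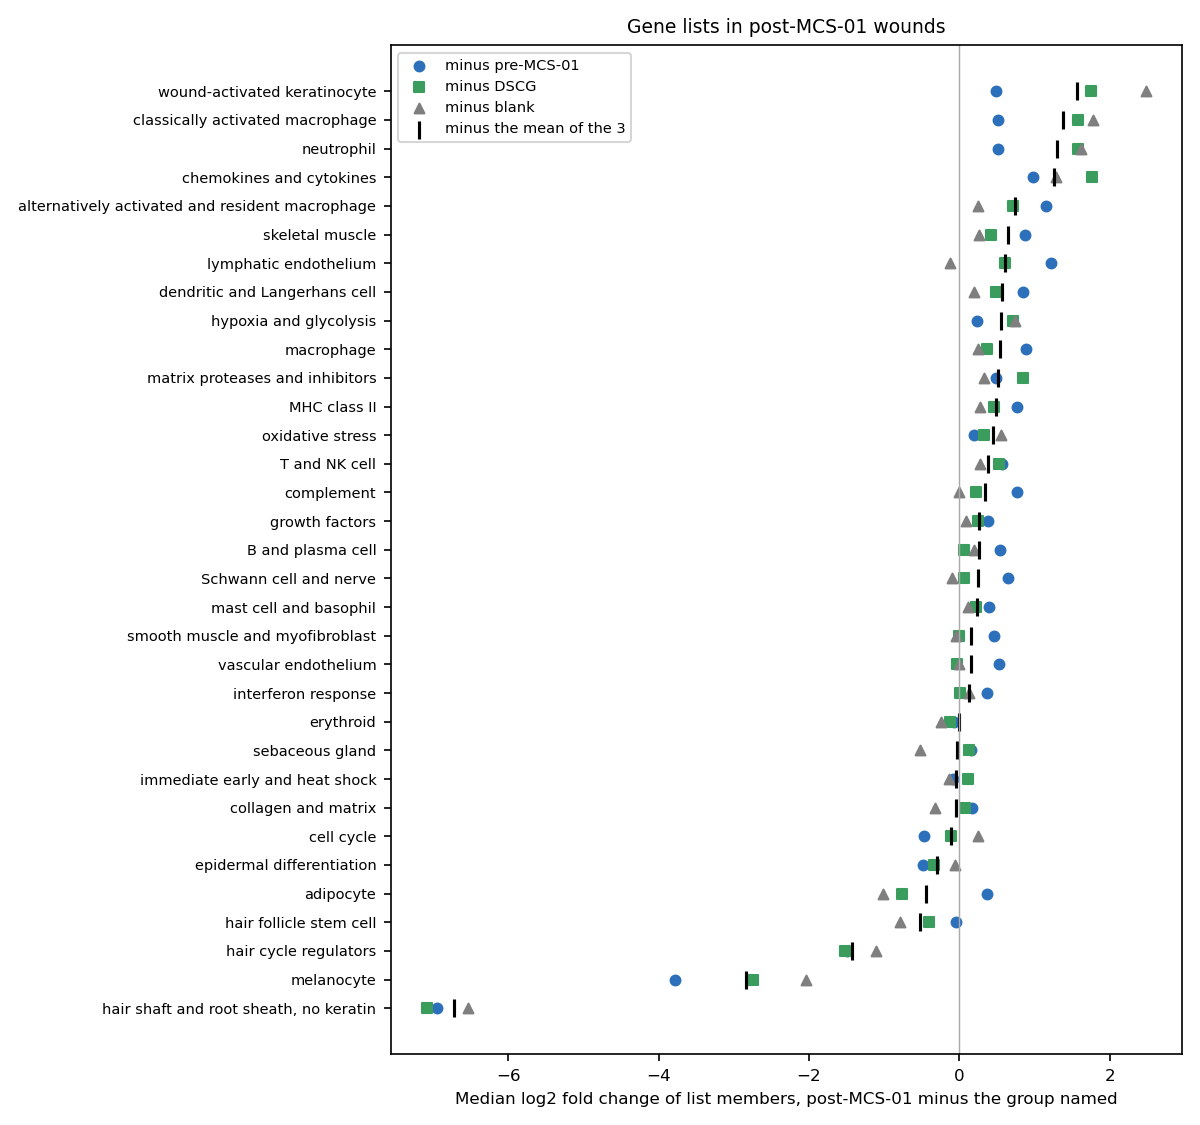
Median log2 fold change of the members tested in each of 33 gene lists, post-MCS-01 minus pre-MCS-01, minus DSCG, minus blank, and minus the mean of the 3 groups (bars). Hair shaft, melanocyte and hair cycle lists lie lowest, with bars at -6.72, -2.84 and -1.43, and the wound-activated keratinocyte list highest, at 1.56.

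Set against each group in turn, the 53 higher genes had median log2 fold changes of 1.25 for post-MCS-01 minus pre-MCS-01, 2.11 minus DSCG and 2.09 minus blank. The 97 lower genes had medians of -6.04, -6.24 and -5.33 for the same 3 contrasts. These contrasts share the post-MCS-01 libraries. All 97 lower genes and 52 of the 53 higher genes kept 1 sign in the 3 contrasts. Called genes numbered 3 higher and 131 lower against pre-MCS-01 (0.0184% and 0.805% of genes tested), 23 and 149 against DSCG (0.141% and 0.916%), and 0 in either direction against blank. Against blank 1521 genes had an unadjusted p under 0.05 in edgeR, DESeq2 called 406 and limma-voom 0.

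C7, a late complement component, was called higher in the pooled contrast with unequal values against the 3 groups. It had 38.4, 26.6 and 72.8 CPM in post-MCS-01 wounds, against 6.64, 4.01 and 7.62 CPM in pre-MCS-01 wounds, 17.3, 12.7 and 26.6 CPM in DSCG wounds, and 19.6, 50.5 and 29.1 CPM in blank wounds. Its log2 fold change was 2.91 minus pre-MCS-01, 1.28 minus DSCG and 0.47 minus blank. Saa1 ran the other way, at 1.44 minus pre-MCS-01, 2.59 minus DSCG and 3.78 minus blank, its values being 4.2, 7.05 and 5.2 CPM in wounds labelled pre-MCS-01 and 0.921, 1.58 and 0.262 CPM in blank wounds. Tchh differed little between the contrasts, at -7.48, -7.92 and -7.05.

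A test of pre-MCS-01, DSCG and blank against each other, which does not use the post-MCS-01 mean, called 0 of 16267 genes by edgeR, with a smallest adjusted p of 0.497. In that test 570 genes had an unadjusted p under 0.05 (3.5%), DESeq2 called 40 and limma-voom 0. Of the 54 genes called higher in post-MCS-01, 27 were among those 570, and of the 163 called lower, 4 were. Among the 53 higher genes that are not keratins, pre-MCS-01 replicate 3 was the nearest of the 9 other libraries for 36 and lay within the post-MCS-01 range for 20. Post-MCS-01 replicate 2 held the most extreme value for 39 of the 53 higher and 60 of the 97 lower genes.

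Library by library, the mean log2 CPM of the wound-activated keratinocyte list, relative to its median over the other 9, was 1.25, 2.19 and 0.93 in post-MCS-01 wounds, against 1.12, 1.09 and 0.89 in pre-MCS-01, 0.59, 0 and -3.49 in DSCG, and -0.81, -1.45 and -0.70 in blank. The pre-MCS-01 and post-MCS-01 libraries overlapped in this list, and DSCG replicate 3 was far below all. In the neutrophil list post-MCS-01 replicate 1 stood at 0.30, below pre-MCS-01 replicates 1 and 3 at 1.57 and 1.08, DSCG replicate 1 at 0.77 and blank replicate 1 at 0.42. In the chemokine and cytokine list the post-MCS-01 libraries at 0.98, 1.55 and 1.03 lay above all others, the highest of which was 0.61. The hair cycle list ran from -2.07 to -1.76 in post-MCS-01 wounds, against -1.06 to 0.74 in the others.

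**Figure D5:**
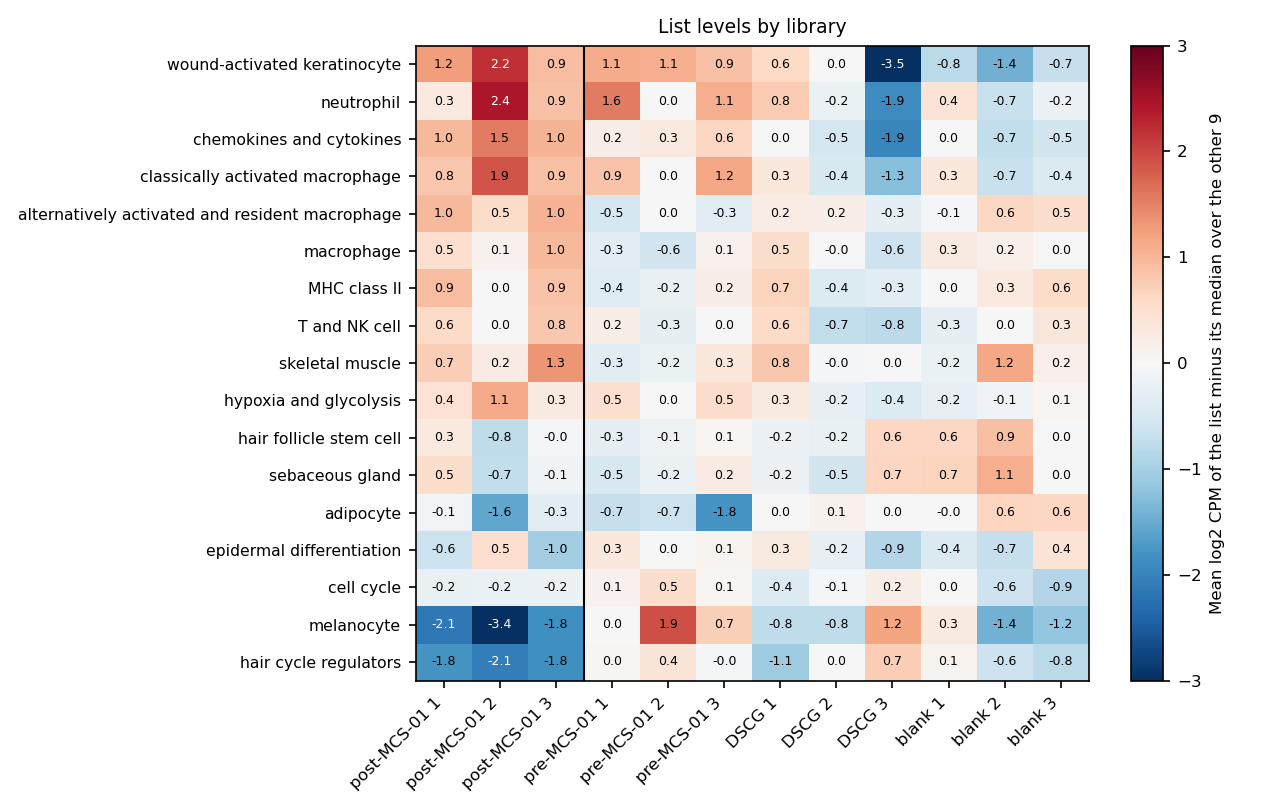
Mean log2 CPM of 17 gene lists in each library, minus the list's median over the 9 other libraries; colours stop at 3 and -3, and the printed values do not. Post-MCS-01 libraries, left of the line, lie lowest in the melanocyte and hair cycle lists, and pre-MCS-01 libraries share the higher values of the wound-activated keratinocyte list.

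Measures of the libraries that do not use gene levels were tested, 5 in all. The reads assigned to no feature made up 4.66 ± 0.263% in post-MCS-01 libraries and 5.10 ± 0.874% in the others (SD, n = 3 and 9). In an exact two-sided permutation test over 220 splits, with a smallest possible p of 0.00455, the p was 0.436, and the adjusted p over the 5 measures was 0.986 for each. Keratin and keratin-associated genes together took 4.21 to 7.22% of gene counts in post-MCS-01 libraries and 4.76 to 9.42% in the others.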

How the data were processed

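RNA from 12 wounds, 1 per mouse, was sequenced. Each library has a deposited file of raw counts, whole numbers of reads for 24062 gene symbols, to which the counting tool added 5 lines of unassigned reads. Per the submitters' processing notes, FastQC, TopHat2, Bowtie2, HTSeq, limma and the build mm10 were used; versions, annotation and strand setting are not given in the sources used here, so reads of overlapping genes on opposite strands cannot be told apart. Those lines stayed out of library sizes and tests.

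Libraries were grouped by treatment label, 3 each, and replicates numbered in the order of the records. In R 4.3.3, filterByExpr at its defaults left 16267 genes, TMM scaled the libraries, and edgeR 4.0.16 (glmQLFit, glmQLFTest, two-sided) was fitted to all 12 libraries with a mean per label. The contrast was post-MCS-01 minus the mean of pre-MCS-01, DSCG and blank, with Benjamini-Hochberg adjustment over all genes and a threshold of 0.05. Log2 CPM used a prior count of 2. DESeq2 1.42.0 and limma 3.58.1 (voom) were alternatives, with RLE scaling, no filter, the 9 libraries as 1 group, and leaving out each library or the 3 libraries in which genes with long exons lay low. The edgeR fit was run on simulated data in which the changed genes were known, and the other steps were not. In those data pre-MCS-01, DSCG and blank did not differ, and exon length had no effect. The simulation therefore cannot speak to how far the calls here depend on such features. No pair of libraries in a group agreed within sampling noise.

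The libraries and the 33 gene lists were chosen with earlier results of these data known, so calls and list counts are descriptions. Named were the 15 largest rises and 15 largest falls, keratin and predicted genes aside. These came from called genes with at least 1 CPM and no overlap. Also named were up to 4 members per list by smallest p, 11 set genes and cell type markers. Other names are marked. Depth was 3.84e+06 to 5.05e+07 counts, and 0 counts in a group were set to a floor of 3. Exon lengths and coordinates were matched by symbol to GENCODE M21 (GRCm38, which mm10 also names). List symbols were replaced by older ones for 3 genes.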

Additional observations from a re-analysis of the deposited data

Results flagged for a closer look

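Among the 9 libraries other than post-MCS-01, 128 sets of values were searched for a library far from the rest, and 7 stood out; chance gives about 1 in 20. DSCG replicate 3 was the low end for 3 genes, with Il33 at 11.3 CPM against a next lowest of 29.4 CPM, Il10 at 0.106 against 0.524 CPM, and Slpi, a secreted protease inhibitor, at 15.3 against 63.4 CPM. DSCG replicate 1 had Gprc5d at 4.28 CPM, against a next lowest of 35.4 CPM. Pre-MCS-01 replicate 3 had Tnfrsf9 at 7.87 CPM, against a next highest of 3.61 CPM. Blank replicate 3 was the shallowest library, with a log10 total gene count of 6.58 against a next lowest of 7.59 and a log10 number of genes with a count of 4.21 against 4.26.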

How the results depend on the processing

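No paired analysis was possible because every library comes from another mouse and the labels give no number shared between groups. Higher and lower calls numbered 54 and 163 as reported. They numbered 235 and 526 with DESeq2 and 4 and 6 with limma-voom. Without the 3 libraries in which genes with long exons lay low they numbered 0 and 0. An alternative chosen after seeing the data left keratin and keratin-associated genes out before scaling, and gave 32 and 58. The fit as reported called 53 and 97 outside those genes. In that alternative 35.6% of calls were higher, while the 24.9% of the fit as reported counts the keratin genes too. Counts stayed within 1.5 times of 54 and 163 with RLE scaling (57 and 159) and no filter (59 and 173). With the 9 libraries as 1 group (37 and 210) they did too, but the higher genes were in part others. Of those 37 and 210, 26 higher and 161 lower genes were among the 54 and 163 reported. Leaving out 1 library gave 0 to 216 higher and 0 to 420 lower calls. Besides the libraries named with the counts above, these were 11 and 27 without DSCG replicate 2 and 46 and 108 without DSCG replicate 3. They were 25 and 106 without blank replicate 2 and 8 and 24 without blank replicate 3. Without pre-MCS-01 replicates 1, 2 and 3 they were 23 and 137, 31 and 133, and 59 and 141. Each of the 217 called genes kept its sign in every alternative run, or 150 of 150 with the keratin genes left out. Since most of these genes did not overlap with the other libraries, this was largely set in advance and adds no evidence. A set of 90 genes, not the same set as those described above, was followed through the alternative runs. All 67 called genes among them lost the call without at least 1 library. Of 1709 values of these 90 genes, 1063 kept their side of the threshold, 615 lost a call, 30 gained one and 1 changed sign. The last was Cpa3, at -0.06 in place of 0.15 without post-MCS-01 replicate 3, and between -0.06 and 0.49 when 1 library was left out. The cause was not tested.

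Genes above all 9 others numbered 257, 453 without those 3 libraries, and 275 to 711 when 1 library was left out, since fewer libraries leave fewer to overlap with. Genes below all 9 numbered 536, and 518 to 771. DESeq2 called 40 genes among pre-MCS-01, DSCG and blank, where the other fits called 0. Of 627 list medians 8 moved beyond the spread, among them interferon response (-0.54 without post-MCS-01 replicate 3) and erythroid (0.30 with no filter). The difference of mean total gene count, post-MCS-01 minus others, was 891000, and -3580000 without blank replicate 3. For genes with a count it was 86.8, and -166 without that library. At the depth of blank replicate 3 a count of 0 allows 0.786 CPM, against 0.0588 to 0.0852 CPM in the other 11.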

Other observations

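Oxygen and energy genes lay slightly higher in post-MCS-01 wounds without a call. Pre-MCS-01 replicates 1 and 3 shared the higher hypoxia and glycolysis levels. Relative to its median over the other libraries, that list's mean log2 CPM was 0.44, 1.13 and 0.26 in post-MCS-01 wounds. It was 0.48, 0 and 0.53 in pre-MCS-01, 0.27 in DSCG replicate 1, and -0.4 to 0.06 in the remaining libraries. The list's median log2 fold change was 0.23 minus pre-MCS-01, 0.71 minus DSCG and 0.74 minus blank. All 20 listed hypoxia and glycolysis genes had a log2 fold change above 0, with a median of 0.55, and their summed level was 8000 to 11400 CPM in post-MCS-01 wounds and 4660 to 8260 CPM in the others. Hk2, a hexokinase that starts glycolysis, had 119, 266 and 105 CPM in post-MCS-01 wounds, against 62.6 to 154 CPM, and Vegfa, the vessel growth factor, had 73.1, 164 and 47.7 CPM, against 25.3 to 106 CPM. Post-MCS-01 replicate 2 was the highest for both, and without it the log2 fold change of Vegfa was 0.40 in place of 1.01. Nqo1, a quinone reductase of the oxidative stress response, had 18.3, 19.1 and 15.4 CPM, against 6.69 to 14.4 CPM, without overlap and without a call. That list of 14 genes had 1 called higher, Sod2, against 0.332% of all genes tested, and a median of 0.45, which was 0.58, 0.31 and 0.24 without post-MCS-01 replicate 1, 2 and 3.

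In the wound-activated keratinocyte list, 2 of 16 genes were called higher (Defb3 and Il33), against 0.332% of all genes tested, with a median of 1.56. Krt6a, a keratin induced by wounding, had 2490, 4460 and 2560 CPM in post-MCS-01 wounds, against 926 to 3410 CPM in the others, which overlapped. The 19 tested genes of epidermal differentiation had a median of -0.30 with 0 called, and Ivl, involucrin, a precursor of the cornified envelope, was the gene of that list that lay below all others, at 66.8, 77.2 and 33.9 CPM in post-MCS-01 wounds, against 103 to 232 CPM. In the chemokine and cytokine list 3 of 32 were called higher (Ccl22, Il20 and Il33), against 0.332% of all genes tested, with a median of 1.26.

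Skeletal muscle genes had a median of 0.64 over 18 genes, 17 of them above 0, with 0 called, and Mylpf, a myosin light chain, had 292, 240 and 506 CPM in post-MCS-01 wounds, against 107 to 334 CPM. Other lists with 0 called had medians of -0.44 for 16 adipocyte genes, -0.11 for 22 cell cycle genes, -0.05 for 22 collagen and matrix genes, -0.04 for 18 immediate early and heat shock genes, 0.13 for 20 interferon response genes, 0.15 for 16 vascular endothelium genes, 0.15 for 10 smooth muscle and myofibroblast genes, 0.24 for 12 Schwann cell and nerve genes, 0.26 for 20 growth factor genes, 0.26 for 6 B and plasma cell genes, 0.48 for 10 MHC class II genes and 0.51 for 19 matrix protease and inhibitor genes. Leaving out post-MCS-01 replicate 3 turned the interferon response median to -0.54 and the Schwann cell and nerve median to -0.09. Against 0.332% of all genes tested called higher, the complement list had 1 of 19 called (C7) with a median of 0.34, the lymphatic endothelium list 1 of 6 (Lyve1) with 0.60, and the dendritic cell list 2 of 14 with 0.57. The erythroid list, with 1 of 8 called lower against 1% of all genes tested, had a median of -0.01, and of -0.32 without post-MCS-01 replicate 2.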
